A study of Mus musculus with 2 samples.

Results

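The genes described here encode the core histones H2A, H2B, H3 and H4 and the linker histone H1, chosen from the array's annotation by their symbols alone. The symbol rule found 58 genes among the 19505 that the annotation names, and 57 of them are histone genes. The remaining gene, H13, encodes a minor histocompatibility antigen (a signal peptide peptidase) and only shares the form of its symbol, so it was left out of every histone class; it read 8.03 in wild type and 8.15 with the knockout label. The 57 histone genes comprised 8 for H1, 13 for H2A, 15 for H2B, 10 for H3 and 11 for H4. By the older names of the genes, 46 belong to the Hist1 cluster and 8 to the Hist2 cluster, and the linker genes H1f7, H1f8 and H1f10 lie outside both.

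The study compared innate lymphoid cell (ILC) progenitors of wild-type mice with those of littermates carrying a Yeats4 deletion, on 1 array per genotype. Both groups were sorted as lineage-negative, CD127-positive, α4β7-positive cells with intermediate c-Kit and Sca-1, and no treatment was applied to either. Strain, age, the number of mice pooled and the promoter that drove the deletion are not stated in the labels. Since each genotype has a single array, no replicate error, test or p-value exists, and each difference below is that of 2 arrays. Yeats4 itself read 5.96 in wild type and 5.90 with the knockout label, a difference of -0.06, so the genotype is not checked by its transcript, and that array is named by its label, as knockout-labelled, throughout.

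Histone proteins package DNA into nucleosomes, with H1 binding the linker DNA between them. Most core histone and several H1 genes are replication-dependent: they lie in clusters, are transcribed mainly in S phase, and give mRNAs that end in a stem-loop in place of a poly(A) tail. Replacement variants such as H2A.Z and H3.3 are made throughout the cell cycle from genes elsewhere. Yeats4 is a reader of acetylated histones and a subunit of the SRCAP complex, which deposits H2A.Z, and of the Tip60 acetyltransferase complex. The labels name a whole-transcript labelling kit but not the primer that started the cDNA, and how well tail-less histone mRNAs were copied was not tested.

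Values are log2 expression after robust multi-array averaging (RMA), and every difference is the knockout-labelled value minus the wild-type value. Genes counted as measured when the mean of the arrays reached the median of all probe sets (2.88), which 53 of the 57 histone genes and 10881 genes in all did. The 4 histone genes below it were H1f7, H1f8, H2bc1 and H3c1. Signal near background was judged by the 95th percentile of the negative controls, 4.80 for wild type and 4.73 for the knockout-labelled array, and 49 histone genes lay above 4.80 on both arrays. The local spread is the scaled median absolute deviation, about their own median, of the differences of the 500 genes nearest in mean level. Every difference is set against its local spread by distance from 0, not from that median. Other genes with means of 4 or more had medians above 0, so differences above 0 pass 1 local spread more readily. Only 83 genes had a mean of 10 or more, so at that level the 500 genes reach below 10. The 27 histone genes there share 1 spread, 0.17. The local spread describes scatter between these arrays and holds no replicate error. Levels of different probe sets are not set against each other.

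No histone gene differed 2-fold between the arrays in either direction. Over all genes past the filter, 1.56% read 2-fold or more higher in the knockout-labelled sample and 0.781% read that much lower, and with all differences centred on their median these calls numbered 123 and 118 in place of 170 and 85. None of the 53 histone genes reached 1.5-fold either, where 9.16% of all genes were higher and 5.16% lower. Of the histone genes 42 read above 0 and 11 below, and 58.2% of all genes read above 0. At means from 8 to 10, 12 of 14 histone genes and 78.2% of other genes read above 0. At 10 or more, 22 of 27 histone genes and 73.2% of other genes did. The median difference of the histone genes was 0.08 (range -0.39 to 0.58), and that of all genes was also 0.08. Because the histone median equals the general shift between the arrays, its sign depends on centring: it was -0.01 with centred values and -0.02 after a loess correction of the difference on level. With centred values 22 of the 53 read above 0, since a difference between 0 and 0.08 then lies below 0; this holds for every count above 0 given here. A difference beyond 1 local spread was seen for 11 of the 53, or 20.8%, against 34.4% of all genes, and the largest was 1.53 local spreads, where 1.11% of all genes reached 3.

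**Figure D1:**
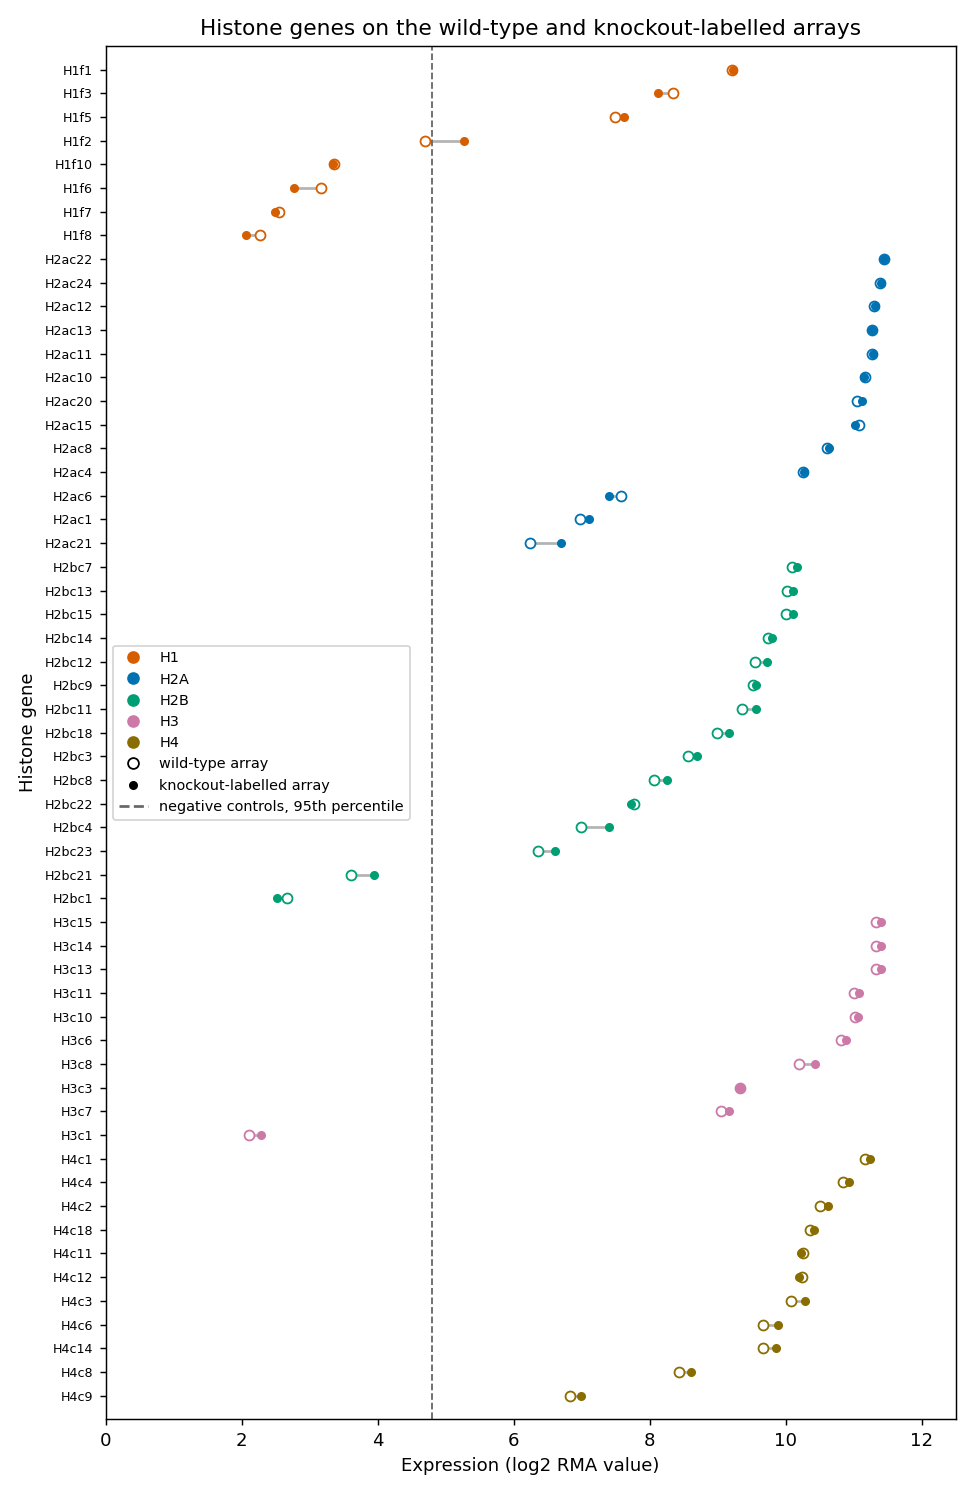
Log2 RMA expression (horizontal axis) of the 57 histone genes (vertical axis, by class) on the wild-type array (open points) and the knockout-labelled array (filled points), 1 array each. The points of most genes nearly coincide, and the dashed line marks the wild-type array's negative control level of 4.80.

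The histone genes lay high on the scale, where all genes differ less. Of the 83 genes with a mean of 10 or more, 27 were histone genes, and the highest value in the table was 11.89. Among those 27 the differences had a median of 0.07 and ran from -0.07 to 0.24, while the 56 other genes at that level had a median of 0.10 and a 5th to 95th percentile range of -0.16 to 0.40. Between 8 and 10 the 14 histone genes had a median of 0.16 and 372 other genes one of 0.14. Between 6 and 8 the medians were 0.15 for 8 histone genes and 0.16 for 2252 others. Close copies of a histone gene can share probe signal, so neighbouring values are not independent readings.

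**Figure D2:**
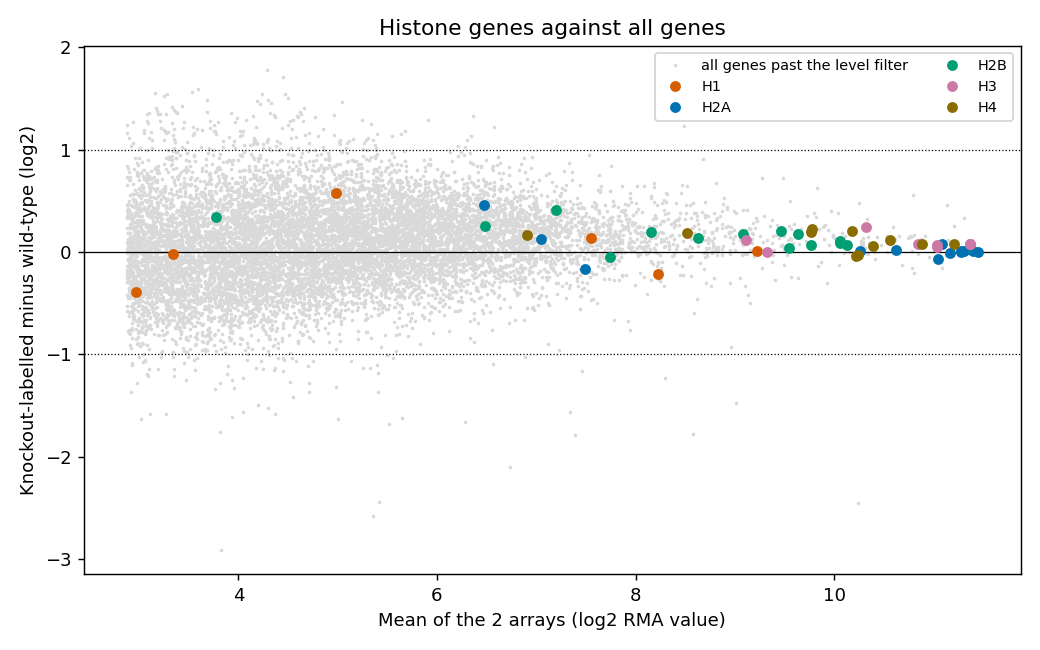
Difference between the arrays (vertical axis, log2) against the mean of the arrays (horizontal axis, log2 RMA value) for the histone genes by class (coloured points) and all 10881 genes past the level filter (grey). Dotted lines mark 2-fold; the histone genes lie between -0.39 and 0.58.

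Shared signal was visible in the table. H3c13, H3c14 and H3c15, which encode H3 in the Hist2 cluster, had the same reading on each array, 11.33 and 11.40, so they count as 1 measurement and the 53 genes give 51 readings. H2ac11 and H2ac12 differed in level but not in their difference, 0.01, to within 1e-06. The upstream sequences of the H3 genes are not all alike. In the RefSeq promoter windows of GRCm38.p6, from 250 bases before to 50 after each start, H3c14 and H3c15 share an unbroken run of 231 bases, while H3c13 shares at most 7 bases with either. The single reading therefore cannot say which of the 3 genes was transcribed.

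The linker histone genes held both the highest and the lowest difference of all histone genes. H1f2, which encodes the somatic linker histone H1.2, read 4.69 in wild type and 5.27 with the knockout label, differing by 0.58 where the local spread was 0.39. The wild-type reading was under the negative control level, so H1f2 was at least 1.38-fold higher, taking the other reading as exact. H1f3, which encodes H1.3, read 8.34 and 8.12, differing by -0.22 where the local spread was 0.20, and was the lowest among histone genes above background on both arrays. These somatic linker genes thus read in opposite directions, by 1.47 and -1.06 local spreads from 0. Among the 500 genes nearest in level H1f2 ranked 446 and H1f3 ranked 35 from the lowest. H1f1 read 9.22 and 9.23, a difference of 0.01. H1f5 read 7.49 and 7.62, a difference of 0.14. The other linker genes were near background on both arrays. H1f6, the testis linker histone, read 3.16 and 2.77, and its difference of -0.39 was the lowest of all but lay within its local spread of 0.44. H1f10, the replacement linker H1X, read 3.35 and 3.34. H1f7 and H1f8, the spermatid and oocyte linkers, read between 2.06 and 2.55. The median of the 6 linker genes past the filter was -0.0022 (range -0.39 to 0.58), and it was 0.01 over the 3 above background on both arrays.

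The upstream sequences of H1f2 and H1f3 are shown because they had the highest and the lowest difference among linker genes above the negative control level on at least 1 array. Each run is the 150 bases before the RefSeq start, with the H1 box AAACACA, the CCAAT box CCAAT and the TATA box TATAAA, searched on both strands, in capitals. H1f2 is chr13:23738657-23738806 and H1f3 is chr13:23554882-23555031, both on the plus strand of GRCm38.p6.
H1f2: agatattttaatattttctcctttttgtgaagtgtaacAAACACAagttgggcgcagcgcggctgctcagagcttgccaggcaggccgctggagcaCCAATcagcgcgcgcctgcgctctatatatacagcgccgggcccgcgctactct
H1f3: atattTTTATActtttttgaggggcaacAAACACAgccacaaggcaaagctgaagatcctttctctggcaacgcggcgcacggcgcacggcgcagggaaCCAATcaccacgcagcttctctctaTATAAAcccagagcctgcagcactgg
Both sequences hold the H1 box, which coordinates linker histone transcription, followed by a CCAAT box, and TATAAA was matched in H1f3. In the 250 bases before the start the H1 box was found in 4 of 8 linker genes and in 6.25% of all 32851 promoter windows.

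The H2A genes gave nearly the same reading on both arrays at high levels. Their median was 0.01 (range -0.17 to 0.46), and 9 of 13 read above 0, while with centred values the median was -0.077 and after the correction for level -0.086. All 13 lay above the negative control level on both arrays, and 10 had a mean of 10 or more, where differences ran only from -0.07 to 0.08. H2ac22 read 11.45 on both arrays and H2ac24 read 11.40 on both. H2ac13 read 11.27 on both. These genes of the Hist1 cluster encode nearly identical major H2A proteins. H2ac12 read 11.30 and 11.31, and H2ac11 read 11.27 and 11.28. H2ac10 read 11.17 and 11.16, and H2ac15 read 11.09 and 11.02, the lowest difference of this level at -0.07. H2ac4 (10.26 and 10.27) and H2ac8 (10.61 and 10.64) differed by 0.01 and 0.02. H2ac20, in the Hist2 cluster, read 11.05 and 11.13.

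The H2A genes with lower readings differed more. H2ac21, in the Hist2 cluster, read 6.25 in wild type and 6.70 with the knockout label, differing by 0.46 where the local spread was 0.30, the largest of all histone genes relative to that spread. H2ac6 read 7.58 and 7.41, the lowest H2A difference at -0.17, within its local spread of 0.24 from 0. Among the 500 genes nearest in level it ranked 50 from the lowest. H2ac1, which encodes the testis H2A and shares its promoter region with H2bc1, read 6.98 and 7.11. Its partner H2bc1, the testis H2B, stayed near background at 2.67 and 2.51. All 7 listed germ cell genes, among them Prm1 and Ddx4, also read near background on both arrays. Whether the H2ac1 probes picked up another H2A gene was not tested.

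Nearly all H2B genes read above 0 on these arrays. This held for 13 of the 14 past the filter, with a median of 0.16 (range -0.05 to 0.41), against 58.2% of all genes. Other genes at the levels of most H2B genes also mostly read above 0: 70.3% between 6 and 8, 78.2% between 8 and 10 and 73.2% at 10 or more. The H2B median was 0.03 after the correction for level and 0.05 after quantile normalization of the table. H2bc4 read 6.99 in wild type and 7.40 with the knockout label, differing by 0.41 where the local spread was 0.28, the highest of the class. H2bc21, of the Hist2 cluster, read 3.60 and 3.94, near background on both. H2bc23 read 6.36 and 6.61, a difference of 0.25 within its local spread of 0.31. H2bc22 was the single H2B gene below 0, at 7.77 and 7.72. Between means of 8 and 10 all 7 H2B genes read above 0, from 0.04 for H2bc9 to 0.21 for H2bc11, around a median of 0.17. At 10 or more H2bc7, H2bc13 and H2bc15 differed by 0.07, 0.09 and 0.10. At that level the H2A genes had a median of 0.01, the H2B genes 0.09, the H3 genes 0.08 and the H4 genes 0.08, from 10, 3, 7 and 7 genes. H2bc18, the other Hist2 gene of this class, read 8.99 and 9.17.

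Several H2A and H2B genes face away from each other and share the sequence between their starts, which makes the partners a natural comparison. In the promoter windows 7 such pairs were found, with 163 to 280 bases between the starts, and both partners passed the filter in 6. In 5 of these 6 the H2B partner had the higher difference, and the median gap between partners was 0.16 (range -0.05 to 0.19). The pairs are not independent readings, since close H2A copies can share probe signal. H2ac11 and H2ac12, of separate pairs, had the same difference to within 1e-06. For H2ac11 and H2bc11 the differences were 0.01 and 0.21, the widest gap. For H2ac15 and H2bc15 they were -0.07 and 0.10, and for H2ac8 and H2bc8 they were 0.02 and 0.19. Of these 6 genes H2bc11 alone lay beyond its local spread from 0. Among the 500 genes nearest in level, however, H2bc11 ranked 332 from the lowest and H2ac15 ranked 62. For H2ac12 and H2bc12 the differences were 0.01 and 0.17, and for H2ac13 and H2bc13 they were 0.0003 and 0.09. The exception was H2ac22 and H2bc22, at -0.0002 and -0.05. All 6 H2A probe sets read above 10, near the top of the table's range of values, and the part of signal level in the gap was not tested.

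The sequences between the starts of the pair with the widest gap and of the exception are shown, with the CCAAT box and TATAAA on either strand in capitals; the octamer ATTTGCAT, known from H2B promoters, was also searched and is in neither. They run on the plus strand of GRCm38.p6, toward the H2B gene, at chr13:22042950-22043197 for H2ac11 and H2bc11 and chr13:21787249-21787487 for H2ac22 and H2bc22.
H2ac11 and H2bc11: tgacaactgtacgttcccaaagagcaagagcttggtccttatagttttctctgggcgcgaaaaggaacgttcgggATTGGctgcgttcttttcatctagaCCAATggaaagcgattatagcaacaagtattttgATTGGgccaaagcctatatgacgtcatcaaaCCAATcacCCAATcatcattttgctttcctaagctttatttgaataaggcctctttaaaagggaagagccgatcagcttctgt
H2ac22 and H2bc22: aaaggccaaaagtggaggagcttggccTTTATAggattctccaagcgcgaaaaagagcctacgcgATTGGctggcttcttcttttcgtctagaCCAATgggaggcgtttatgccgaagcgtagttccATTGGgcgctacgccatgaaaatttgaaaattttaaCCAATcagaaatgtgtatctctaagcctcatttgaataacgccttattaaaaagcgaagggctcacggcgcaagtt
Both regions hold CCAAT, the letters bound by the factor NF-Y, several times and on both strands. The 250 bases before the start held CCAAT in all 13 H2A and all 13 H2B genes with a window, against 33.8% of all promoters, and windows of facing partners overlap. The octamer was found in 6 of 13 H2B windows, in 6 of 13 H2A windows and in 1.6% of all promoters. The 5 H2B genes past the filter with the octamer had a median difference of 0.17 (range 0.06 to 0.19), and the 7 without it 0.09 (range -0.05 to 0.25), so the ranges overlap. H2bc4 and H2bc21, of highest and second highest difference in the class, are among the 5 histone genes with no promoter window here.

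The H3 genes read slightly higher on the knockout-labelled array, at the size of the general shift. Their median was 0.08 (range -0.0032 to 0.24) over 9 genes that give 7 readings, and 8 of the 9 read above 0. H3c8 read 10.20 in wild type and 10.44 with the knockout label, and its difference of 0.24 was beyond the local spread of 0.17. No other H3 gene was. H3c10 read 11.02 and 11.07, and H3c11 read 11.01 and 11.07. H3c6 read 10.81 and 10.89, and H3c7 read 9.05 and 9.17. H3c3 read 9.33 and 9.32, the only H3 gene below 0. H3c1 read 2.10 and 2.28, under the negative control level on both arrays. After centring or the correction for level the H3 median was -0.01 and -0.02.

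The H4 genes, which all encode the same core histone, did not all read in the same direction. Their median was 0.12 (range -0.04 to 0.23), and 9 of 11 read above 0. The median was 0.035 with centred values, 0.013 after the correction for level and 0.065 after quantile normalization. H4c6 read 9.67 in wild type and 9.89 with the knockout label, differing by 0.23 where the local spread was 0.17. H4c3 read 10.08 and 10.28, and H4c14, the Hist2 member, read 9.66 and 9.86. These 3 of 11 H4 genes, or 27.3%, lay beyond 1 local spread from 0, against 34.4% of all genes. Among the 500 genes nearest in level they ranked 364, 343 and 338 from the lowest, so many genes of their level read higher still. H4c8 read 8.43 and 8.61, H4c9 6.82 and 6.99, and H4c2 10.50 and 10.62. H4c1 read 11.17 and 11.25 and H4c4 read 10.85 and 10.93, both at a difference of 0.08. H4c18 read 10.36 and 10.42. H4c11 (10.26 and 10.23) and H4c12 (10.24 and 10.20) were the only H4 genes below 0, at -0.03 and -0.04, and they are next to each other in the reference order.

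The 150 bases before the starts of H4c6 and H4c12, the H4 genes of highest and lowest difference, are shown with the H4 subtype element GGTCCG, an element of H4 promoters, and TATAAA in capitals. H4c6 is chr13:23551669-23551818 and H4c12 is chr13:21750554-21750703, each read 5′ to 3′ on the minus strand of GRCm38.p6.
H4c6: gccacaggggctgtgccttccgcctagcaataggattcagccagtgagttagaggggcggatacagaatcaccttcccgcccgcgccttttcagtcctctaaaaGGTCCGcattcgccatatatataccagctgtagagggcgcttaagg
H4c12: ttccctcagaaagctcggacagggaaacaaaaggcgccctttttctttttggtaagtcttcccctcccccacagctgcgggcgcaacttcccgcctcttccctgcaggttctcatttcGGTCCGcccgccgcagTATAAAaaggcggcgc
Both hold GGTCCG and neither holds CCAAT in this stretch. In the 250 bases before the start GGTCCG was found in 7 of 10 H4 windows and in 6.72% of all promoters. Among the other classes it was in none of the 13 H2A, 1 of 13 H2B, 1 of 8 H1 and 1 of 8 H3 windows. CCAAT was found in 3 of the 10 H4 windows. The 7 H4 genes with GGTCCG had a median difference of 0.08 (range -0.04 to 0.23) and the 3 without it 0.12 (range 0.08 to 0.19).

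**Figure D3:**
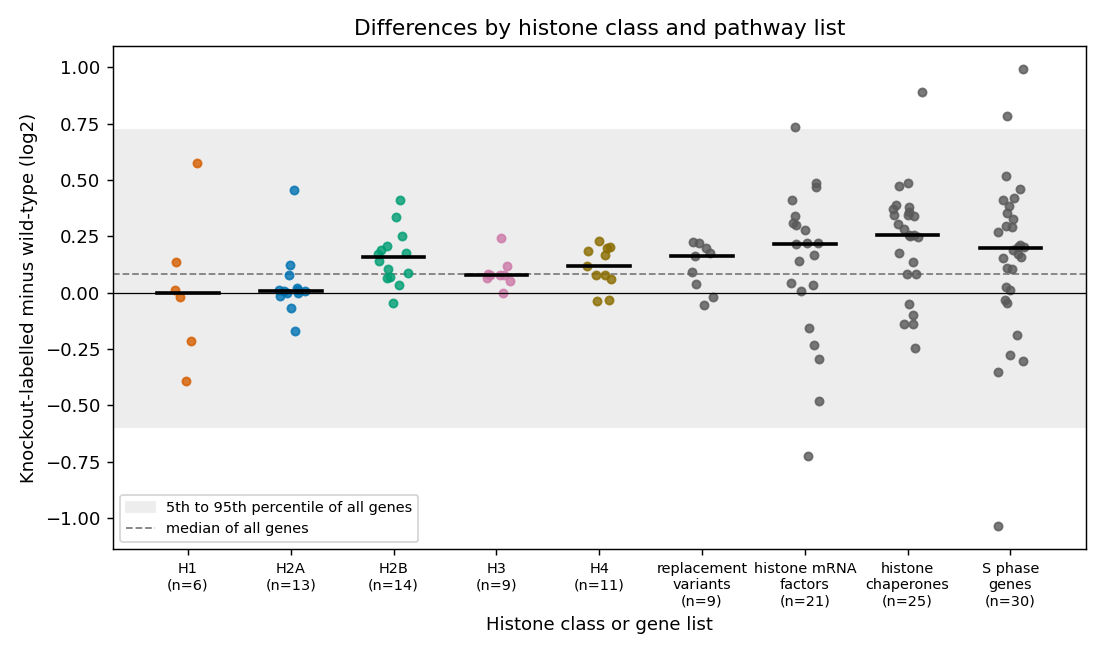
Difference between the arrays (vertical axis, log2) for each histone gene past the level filter by class, and for 4 lists of related genes (grey points); black bars are medians, the shaded band spans the 5th to 95th percentile of all genes, and the dashed line is the median of all genes. The class medians lie between -0.0022 for H1 and 0.16 for H2B, close to the general median of 0.08.

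By position, all 8 Hist2 genes read above 0, as did 77.3% of the 44 Hist1 genes past the filter. Of other genes, 70.3% with means from 6 to 8, 78.2% from 8 to 10 and 73.2% at 10 or more did. With centred values H2ac20 and the shared H3c13, H3c14 and H3c15 reading lie just below 0. The 8 Hist2 genes, which give 6 readings, had a median of 0.13 (range 0.08 to 0.46), led by H2ac21 and H2bc21. The 44 Hist1 genes past the filter had a median of 0.07 (range -0.39 to 0.58), with 10 below 0. At one end of Hist1, H4c11, H4c12 and H2ac15 follow each other in the reference order and all differed by -0.07 to -0.03. Each of these lay within its local spread of 0.17 from 0. Among the 500 genes nearest in level they ranked 72, 70 and 62 from the lowest. Farther along, H2ac6, H2bc4, H1f6, H4c3 and H1f2 follow each other and differed by -0.17, 0.41, -0.39, 0.20 and 0.58. Of these H2ac6 and H1f6 lay within their local spreads, H1f6 was near background on both arrays, and H1f2 was under the negative control level in wild type. Other genes that lie within the Hist1 stretch gave little to compare, since 7 of 50 passed the filter and 4 of those were near background on both arrays. Among the 7 was H4bc24, a Hist1 H2B gene by its older name that the symbol rule does not take in, at 6.04 and 6.35.

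**Figure D4:**
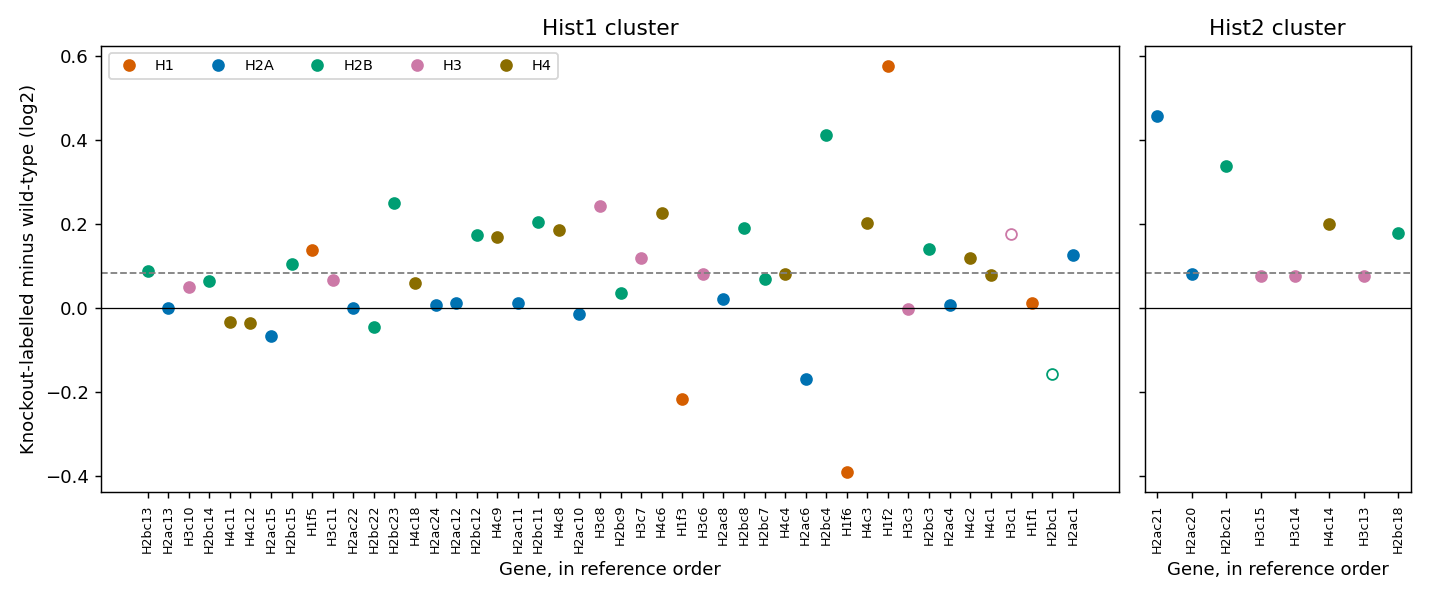
Difference between the arrays (vertical axis, log2) for the 46 Hist1 genes and 8 Hist2 genes in their order in the reference annotation (horizontal axis), coloured by class; open points are genes under the level filter and the dashed line is the median of all genes. H1f2, at 0.58, and H1f6, at -0.39, are the outermost points, and every Hist2 point lies above 0 before centring, the lowest of them at the general median of 0.08.

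H1f2, H2ac6, H2bc4 and H2bc21 belong to the clustered histone genes whose human counterparts are known to give polyadenylated mRNAs as well, mainly in cells that have stopped dividing. They were grouped here after their values were seen and not from a full list of such genes, so their values are no test of that group. H1f2, H2bc4 and H2bc21 read higher on the knockout-labelled array, by 0.58, 0.41 and 0.34. H2ac6, at -0.17, read lower. Of the higher 3 only H2bc4 was above the negative control level on both arrays.

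The replacement variant genes, which include the H2A.Z genes whose product SRCAP deposits, also held no 2-fold difference. Of 9 listed genes past the filter 7 read above 0, with a median of 0.16, which was 0.024 after the correction for level and 0.047 after quantile normalization. Of other genes, 70.3% with means from 6 to 8 and 78.2% from 8 to 10 read above 0. A difference beyond 1 local spread was seen for 3 of the 9, against 34.4% of all genes. The main H2A.Z gene, H2az1 (H2afz), read 9.45 and 9.68, differing by 0.23 where the local spread was 0.17. The second H2A.Z gene, H2az2 (H2afv), read 6.88 and 6.83. The H3.3 genes H3f3a and H3f3b read 7.89 and 7.98, and 8.55 and 8.73. H2ax, whose protein marks DNA breaks when phosphorylated, was at 0.22 and the macroH2A gene Macroh2a1 at 0.20. Cenpa, the centromeric H3, was at 0.04. H1f10 is on this list and among the linker genes too.

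Factors that make histone mRNA and handle histone proteins held no 2-fold difference, and their group medians depended on the correction for level. Among 21 genes of histone mRNA transcription and processing, 16 read above 0, and 58.2% of all genes did. Their median was 0.22 against 0.08 for all genes. That median was 0.063 after the correction for level and 0.069 after quantile normalization. Npat, the coactivator of clustered histone genes, read 5.78 and 6.19, and Slbp, which binds the stem-loop, read 6.78 in wild type and 0.22 higher with the knockout label. Neither lay as far as 1.5-fold from equality. Srrt (Ars2), which links the cap of new transcripts to their processing, read 6.49 and 6.97, a difference of 0.48 beyond its local spread of 0.28. The U7 snRNP subunits Lsm10 (-0.72) and Lsm11 (-0.48) read lower but were near background on both arrays, and Cstf3, of the cleavage machinery, was at 0.74 with its wild-type reading under the negative control level. Among 25 histone chaperones and deposition factors, 20 read above 0. Of other genes, 58.3% with means from 4 to 6 and 70.3% from 6 to 8 read above 0. The chaperone list had a median of 0.26. The median was 0.13 after the correction for level. The H3-H4 chaperone Asf1a was highest at 0.89, with a wild-type reading of 4.27 under the negative control level, and its paralogue Asf1b was at 0.26. Chaf1a, the large subunit of the replication-coupled assembly factor CAF-1, read 5.09 and 5.43, and Nasp, which stores soluble H3 and H4, read 5.22 and 5.61. Atrx, which works with Daxx in H3.3 deposition, was at 0.47 and the histone importin Ipo4 at 0.49, the latter with its wild-type reading under the negative control level.

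Because clustered histone mRNA follows S phase, the S phase genes give the cell cycle context. Of 30 listed genes past the filter 23 read above 0, with a median of 0.20, and 0.05 after the correction for level. Above 0 were also 58.2% of all genes, 58.3% of other genes with means from 4 to 6 and 70.3% from 6 to 8. Cdc45, of the replicative helicase, read 5.67 and 6.45, differing by 0.78 where the local spread was 0.34. Gins1, of the same helicase, was at 0.99 with its wild-type reading under the negative control level. Ung, which removes uracil from DNA, was the single gene past 2-fold, at -1.04, with its reading on the knockout-labelled array under that level. The clamp gene Pcna read 9.33 and 9.34. The share of cells in S phase was not measured.

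The sorted samples also differed in markers of other cells. Of the 9 genes of the sort gate and of ILC progenitors, 8 were above the negative control level on both arrays, and 6 read lower and 3 higher (median -0.35). The gate genes were Il7r at 7.07 and 6.38, Kit at 7.12 and 7.77, Itga4 at 7.38 on both and Itgb7 at 6.46 and 6.32. Among the ILC transcription factors Id2 read 7.88 and 9.11, the list's single 2-fold difference, and Nfil3 read 9.43 and 8.49. Ets1 differed by -0.67 and Tox by -0.58. Zbtb16 read 5.04 and 4.68, under the negative control level on the knockout-labelled array. Of all 10881 genes past the filter, 6335 read above 0 and 4465 below. T cell markers were lower in 12 of 13 (median -1.06), with summed log2 levels of 73.6 and 56.0 over 14 genes. Of these only Cd3e (-2.10), Lat (-0.68) and Cd4 (0.09) were above the negative control level on both arrays. The sums here include genes near background. B cell markers were lower in all 10 (median -0.99), with sums of 69.4 and 59.6 over 11 genes. Macrophage markers were higher in all 10 (median 0.79), with sums of 49.2 and 57.7. Cd5l, Adgre1 and Mertk among them were near background on both arrays. Neutrophil and monocyte markers were split, 6 above and 6 below 0, with sums of 101.1 and 101.8 over 12 genes. Eosinophil markers were lower in 5 of 6 (median -1.56), with sums of 44.9 and 36.3 over 7 genes, and erythroid markers in 3 of 5 (median -0.19), with sums of 31.3 and 30.8 over 7 genes. These values moved with the same arrays as the histone differences, and their part in them was not tested. In such bulk samples fewer cells of a type and less RNA per cell cannot be told apart.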

How the data were processed

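RNA of sorted ILC progenitors was measured on 2 Affymetrix arrays, 1 per genotype. The deposited table holds log2 values; the submitters' processing notes name Affymetrix Power Tools and RMA, and their versions and the genome build are not stated there. Scaling between arrays hides a global change in RNA amount. Gene symbols came from the platform annotation, whose design differs in name from the one in the design text, and older names from RefSeq (GRCm38.p6), where all 57 histone genes were found by Entrez identifier. RefSeq names 11 further genes of these families that were not analysed here, among them H1f4, H1f0 and H2ac18. Each gene took its probe set of highest mean; no histone gene had several. Promoter windows were matched for 52 of 57. Differences were taken without further centring, and the number of arrays limits the precision. The medians, local spreads and counts were checked on simulated data.

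The naming rule covers every histone gene, the 3 members of largest difference in each related list, members at 2-fold and principal factors. The members and lists were chosen with earlier results of these data known. Alternatives were other level filters, raising values to the negative control level, centring, loess against level with a span of 0.3, quantile normalization, averaging the probe sets of each gene and thresholds of 1.5-fold and 3 local spreads. Python 3.11.15, numpy 2.4.6, pandas 2.3.3, scipy 1.17.1, statsmodels 0.14.6 and matplotlib 3.10.9 were used.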

Additional observations from a re-analysis of the deposited data

How the results depend on the processing

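No histone gene was called under any of the 10 settings tried, and no single histone value moved by as much as its local spread under the 8 that change values or filters. The class medians are small, and several changed sign, as did 20 of 53 single differences with centring, 26 with the loess correction and 13 with quantile normalization. Centring on the median, which shifts all genes by -0.08, gave medians of -0.0069 for all histones, -0.077 for H2A and -0.0069 for H3. The loess correction gave -0.020, -0.086 and -0.016 for these and 0.025 for H2B, 0.13 for chaperones and 0.050 for S phase genes. Quantile normalization gave 0.029 for all histones, -0.027 for H2A, 0.047 for H2B and 0.060 for S phase genes. The H1 median became 0.075 with the filter at the 75th percentile and with that at the negative control level, 0.0063 with raised values, and 0.013 over genes above background on both arrays, a choice added after seeing the data. Counting genes that share a reading once, or keeping means of 10 or more, also added then, changed no median's sign. The counts of all genes at 2-fold, 170 higher and 85 lower, became 35 and 25 with the filter at the 75th percentile, 38 and 25 at the negative control level, 19 and 23 with raised values, 997 and 561 at 1.5-fold, and 76 and 45 at 3 local spreads; without a filter 137 were lower. The filters and thresholds change which genes count and raised values shrink differences near background; for the other changes the cause was not tested. No paired analysis was possible because each genotype has 1 array. Of the 53 histone genes past the filter, 49 lay above the negative control level on both arrays. Many cell type marker values did not, nor did the other values said above to be near or under that level.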
